A study of Mus musculus with 24 samples.

Results

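Guanylate-binding proteins (GBPs) were followed across 24 RNA sequencing libraries of cultured mouse macrophages. The genes of the family listed for the description were Gbp2, Gbp3, Gbp4, Gbp5, Gbp6, Gbp7, Gbp8, Gbp9, Gbp10 and Gbp11. Members were taken by gene name, and 9 of the 10 listed names had a row among the 43629 gene rows of the table. Gbp10 had no row of its own.

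The cells were bone marrow-derived macrophages (BMDMs), which are macrophages grown in culture from bone marrow, of C57BL/6 mice at postnatal week 10. Cells were CITED2-KO (KO), lacking CITED2, which regulates transcription through the coactivators p300 and CBP, or wild type (WT). Each genotype was treated with lipopolysaccharide (LPS), interferon gamma (IFNg) or interleukin 4 (IL4), or left as an untreated control. The groups were therefore KO control, KO LPS, KO IFNg and KO IL4, and WT control, WT LPS, WT IFNg and WT IL4, with 3 libraries in each of the 8 groups. The knockout allele, any Cre driver, the doses and the times of treatment were not given in the sources used here. Whether the 3 libraries of a group came from separate animals or cultures was not given either, so a p-value here speaks of the spread among these libraries, which may be technical.

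GBPs are large GTPases of the dynamin superfamily, and their genes are among those most strongly induced by interferons. IFNg signals to DNA elements called gamma-activated sites, while type I interferons act mainly at interferon-stimulated response elements. LPS is known to reach the same genes through the interferon beta that macrophages secrete and through IRF1. The proteins assemble on pathogen vacuoles and on bacteria in the cytosol, and they feed the caspase-11 and AIM2 inflammasomes. In mice, members such as Gbp2 and Gbp5 end in a motif for isoprenylation, the lipid anchor that attaches a protein to membranes.

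The 9 rows lay in 2 clusters of GRCm38. The chromosome 3 cluster held the rows Gbp7 (ENSMUSG00000040253, chr3:142530342-142550149), Gbp3 (ENSMUSG00000028268, chr3:142560026-142573209), Gbp5 (ENSMUSG00000040264, chr3:142594847-142619179) and Gbp2 (ENSMUSG00000028270, chr3:142620602-142638008), all on the plus strand. The chromosome 5 cluster held Gbp8 (ENSMUSG00000034438, chr5:105014150-105139540), Gbp9 (ENSMUSG00000029298, chr5:105077630-105139539), Gbp4 (ENSMUSG00000079363, chr5:105115767-105139586), Gbp6 (ENSMUSG00000079362, chr5:105214907-105293695) and Gbp11 (ENSMUSG00000092021, chr5:105323042-105346472), all on the minus strand. Positions, exons and symbols came from the GENCODE M21 annotation, with positions counted from 1.

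The identifiers of 2 rows carry another symbol in GENCODE M21. The identifier of the Gbp5 row is named Gbp2b there, and M21 gives Gbp5 a separate model upstream of Gbp7 at chr3:142493978-142522344. The identifier of the Gbp6 row is named Gm43302, a model that runs over both the M21 Gbp10 and the M21 Gbp6. It shares 41.6% of its exon bases with Gbp10 and 40.0% with Gbp6, and all of its 50-base words also occur in another model of the family. Which gene the reads of these 2 rows came from cannot be told apart here, so "Gbp5" and "Gbp6" below mean the rows of those names.

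Sequence shared between paralogs bears on the other rows too. The share of 50-base transcript words that occur in another family model was 19.2% for Gbp11, 18.1% for Gbp8, 8.05% for Gbp9, 7.53% for Gbp4, 3.75% for Gbp3, 2.26% for Gbp7, 2.03% for Gbp2 and 1.84% for the Gbp5 row. Gbp4, Gbp8 and Gbp9 start at nearly the same base and share 60 or 61 exon bases, and Gbp7 shares 637 exon bases (11.3%) with the model Gm43802 on the same strand. How the authors' counting treated reads that fit more than 1 model was not given in the sources used here. Gbp11 is typed in M21 as a polymorphic pseudogene.

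**Figure D1:**
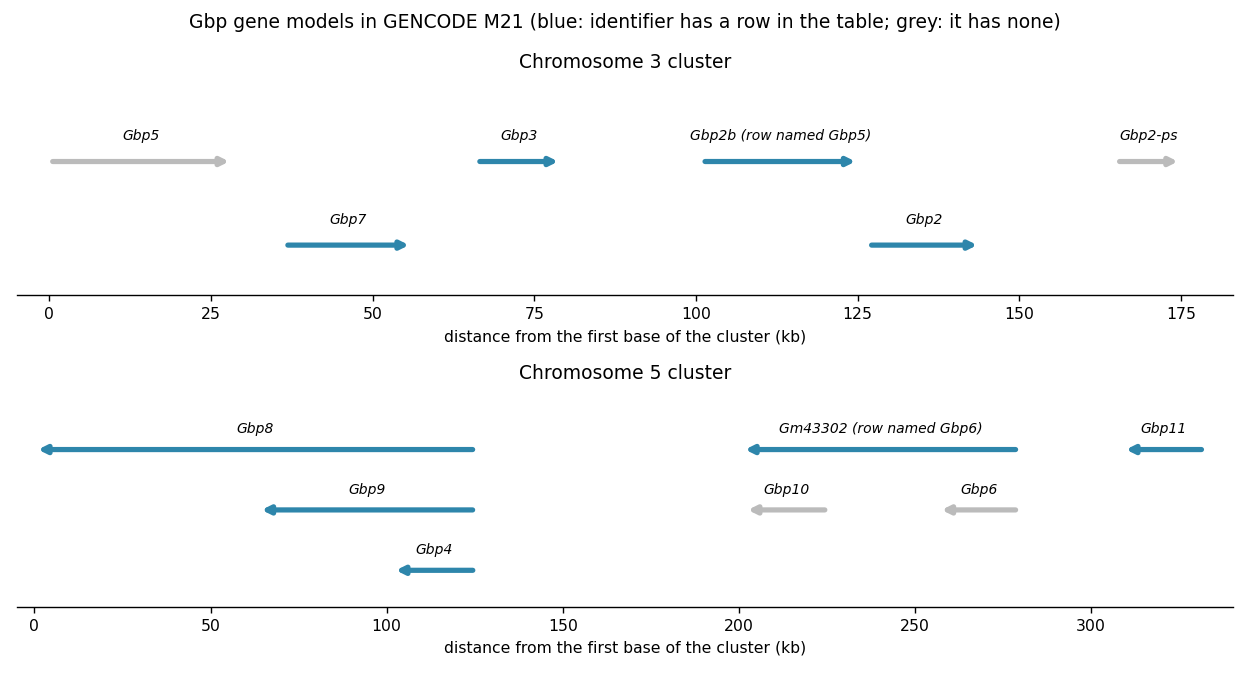
Gene models of the GBP family in GENCODE M21, drawn by distance in kb from the first base of each cluster, with arrows pointing in the direction of transcription. Blue models have a row in the table and grey models have none; the row named Gbp5 lies on the Gbp2b model, and the row named Gbp6 lies on a model that spans Gbp10 and Gbp6.

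Since the members rose together with treatment, the promoters on record for the chromosome 3 cluster are shown. RefSeq entries for build GRCm38.p6 (250 bases before to 50 bases after a start site) were found for 4 of the 10 listed members, Gbp2, Gbp3, Gbp5 and Gbp7, and for Gbp2b. Gbp3 had a pair of start sites, of which the upstream one is shown. Capitals mark the core of the interferon-stimulated response element (ISRE), searched on both strands as GAAA, any 2 bases and GAAA again (on the strand printed, TTTC, any 2 bases and TTTC), and the gamma-activated site (GAS), searched as TTCNNNGAA, which reads the same on both strands.
Gbp2, chr3:142620413-142620712, plus strand: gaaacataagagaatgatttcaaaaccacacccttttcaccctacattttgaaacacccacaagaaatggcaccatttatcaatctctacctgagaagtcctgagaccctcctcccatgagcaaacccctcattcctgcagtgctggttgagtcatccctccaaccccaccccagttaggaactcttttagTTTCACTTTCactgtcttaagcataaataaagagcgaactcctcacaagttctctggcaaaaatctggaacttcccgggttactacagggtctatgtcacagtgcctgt
Gbp3, chr3:142559794-142560093, plus strand: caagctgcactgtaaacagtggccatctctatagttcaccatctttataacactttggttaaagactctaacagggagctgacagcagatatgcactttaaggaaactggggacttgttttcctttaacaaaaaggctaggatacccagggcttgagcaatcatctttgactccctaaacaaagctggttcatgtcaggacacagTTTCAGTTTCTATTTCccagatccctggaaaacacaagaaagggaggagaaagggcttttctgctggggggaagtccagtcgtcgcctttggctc
Gbp5, chr3:142496684-142496983, plus strand: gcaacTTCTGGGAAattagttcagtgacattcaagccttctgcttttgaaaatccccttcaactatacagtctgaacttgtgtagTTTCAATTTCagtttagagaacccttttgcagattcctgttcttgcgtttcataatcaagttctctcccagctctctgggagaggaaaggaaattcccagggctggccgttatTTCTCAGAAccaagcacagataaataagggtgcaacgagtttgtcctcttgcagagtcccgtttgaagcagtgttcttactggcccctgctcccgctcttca
Gbp2b, chr3:142594597-142594896, plus strand: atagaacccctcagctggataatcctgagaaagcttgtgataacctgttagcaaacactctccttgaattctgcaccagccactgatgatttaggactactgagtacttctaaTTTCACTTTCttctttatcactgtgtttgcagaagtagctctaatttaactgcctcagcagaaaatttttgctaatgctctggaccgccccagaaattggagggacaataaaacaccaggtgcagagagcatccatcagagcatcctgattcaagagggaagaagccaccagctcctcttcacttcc
Gbp7, chr3:142530086-142530385, plus strand: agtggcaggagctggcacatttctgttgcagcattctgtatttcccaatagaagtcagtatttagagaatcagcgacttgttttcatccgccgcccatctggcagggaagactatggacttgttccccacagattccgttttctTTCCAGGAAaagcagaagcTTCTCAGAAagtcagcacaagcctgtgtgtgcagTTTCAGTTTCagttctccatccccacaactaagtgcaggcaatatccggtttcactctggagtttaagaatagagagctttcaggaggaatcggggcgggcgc

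Each of these 5 windows held an ISRE core (positions count the start base as 0). It lay at -59 to -50 from the start site in Gbp2, at -53 to -44 in Gbp7, at -137 to -128 in Gbp2b and at -165 to -156 in Gbp5, while Gbp3 held a pair of overlapping matches at -45 to -36 and -39 to -30. GAS matches were found in the Gbp5 window (-245 to -237 and -52 to -44) and in the Gbp7 window (-106 to -98 and -87 to -79). The window of the second Gbp3 start site held neither motif. Among 32851 RefSeq promoter windows of the same length, 3.44% held the ISRE core, 8.3% the GAS and 0.454% both. A match describes letters in the window and does not show that a factor binds there.

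Reads recovered from the scaled values ranged from 1478507 (KO LPS replicate 1) to 73409343 per library, with a median of 29551522 and 3 libraries under 10000000. Cited2, the targeted gene, was at 8.52 to 94.5 normalised read counts in KO libraries, against 1117 to 4174 in WT libraries. All 8 macrophage markers had reads in every group. No 2 libraries of a group agreed within sampling noise, with a chi-square per degree of freedom of 2.03 to 24.5 over 24 pairs. Values below are normalised read counts, which are the deposited values (reads divided by 1 factor per library), as mean ± SD over 3 libraries. Differences are in log2(value + 1) with their standard error (SE), and a call means an adjusted p (Benjamini-Hochberg) below 0.05 from a limma fit to all 24 libraries and 18637 genes. Where libraries of compared groups are said not to overlap, this describes those libraries only. How many of all genes separate so is not given here.

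The family was a sizeable share of all reads with IFNg or LPS and a trace in control cells. With IFNg the 9 rows summed to 2.59% ± 0.0627 of all values in KO and 2.71% ± 0.0726 in WT cells, and with LPS to 1.3% ± 0.0185 in KO and 1.01% ± 0.0371 in WT cells. With IL4 the sum was 0.12% ± 0.00899 in KO and 0.0368% ± 0.000129 in WT cells. In control cells it was 0.00709% ± 0.000591 in KO and 0.00628% ± 0.00113 in WT. The KO libraries all lay above the WT libraries with LPS and with IL4, just below them with IFNg, and overlapped them in control cells. In bulk RNA, a change in the share of cells that express a gene and a change in the RNA per cell cannot be told apart.

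Gbp2 made up most of the family's reads wherever interferon gamma or IL4 was given. Its share of the family sum was 57.9% in KO IFNg and 58.2% in WT IFNg cells, and 65.6% in KO IL4 against 75.6% in WT IL4 cells. With LPS the Gbp5 row took the largest share, 35.7% in KO LPS and 38.4% in WT LPS cells, ahead of Gbp2 with 32.4% in KO LPS and 31.3% in WT LPS cells. Gbp9 held 2.78% of the sum with IFNg in KO and 2.88% in WT cells, against 16% in KO control and 19.9% in WT control cells. Gbp8 and Gbp11 were minor in every group, at most 1.87% of the sum.

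Levels were compared between genes per kb of M21 exon, for the 7 rows whose model is not in doubt. Gbp2 was highest in all 8 groups and Gbp3 next, at 161573 and 14404 per kb in KO IFNg and at 162698 and 13638 per kb in WT IFNg cells. Gbp4 ranked 3 of 7 with IFNg (9023 per kb in KO and 8453 in WT) and 6 of 7 in both controls (3.99 per kb in KO and 3.73 in WT). Gbp11 was lowest in all 8 groups, with 34.4 per kb in KO IFNg and 42.8 in WT IFNg cells. Neighbours in this order whose libraries overlapped were Gbp8 and Gbp4 in both controls, Gbp3 and Gbp9 in WT control, Gbp7 and Gbp9 in KO IL4, Gbp8 and Gbp11 in WT LPS, and Gbp4 and Gbp11 in WT IL4.

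**Figure D2:**
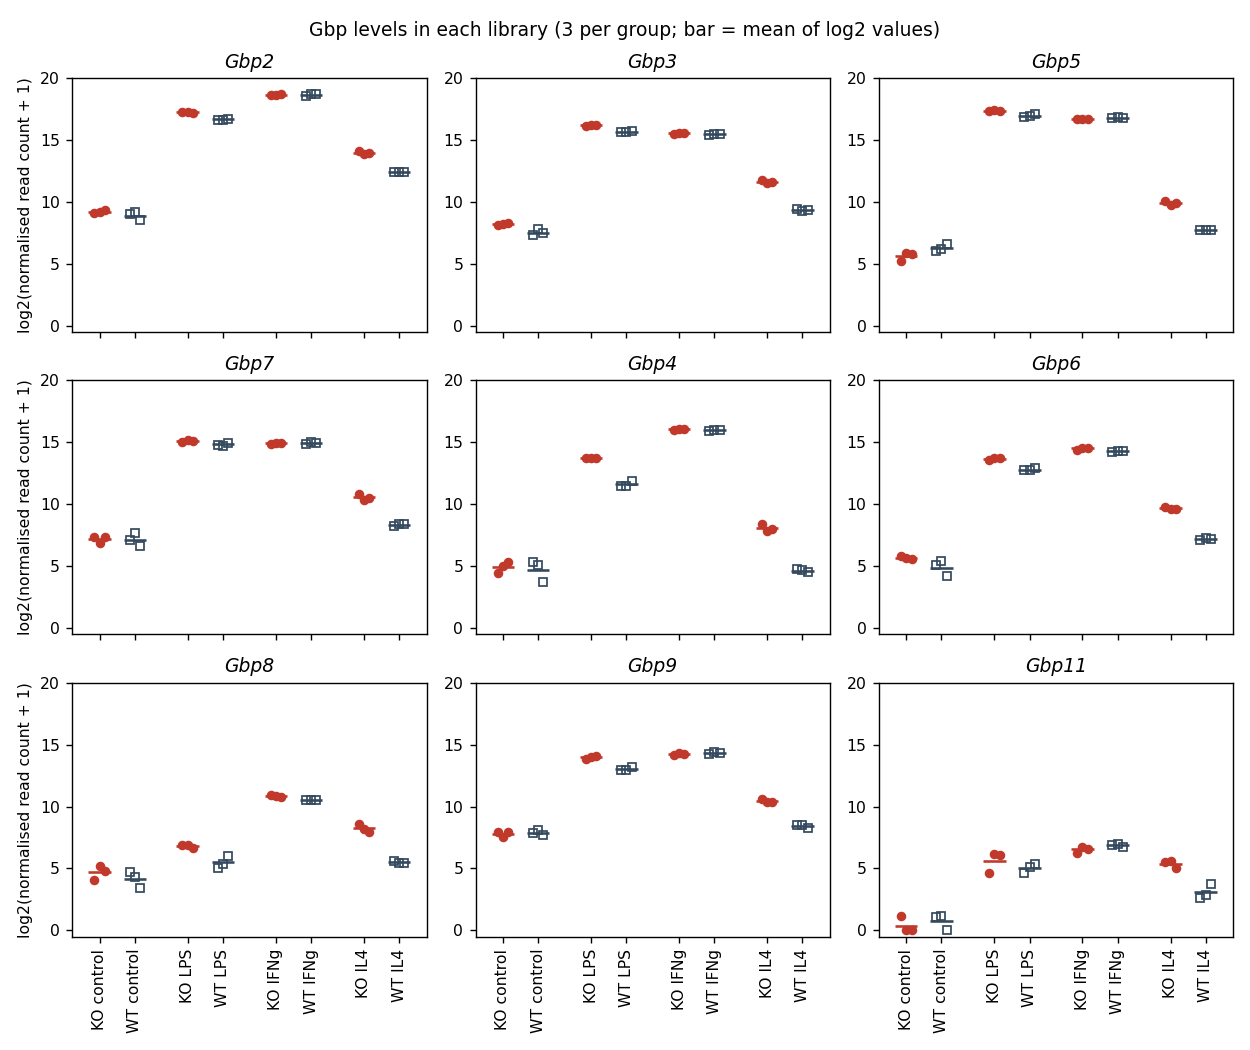
Level of each GBP row in each library, as log2(normalised read count + 1), with KO (filled red circles) left of WT (open squares) in each treatment and a bar at the mean of the 3 log2 values. All 9 rows sat far above their control levels with IFNg, Gbp8 was low with LPS, and with IL4 every KO library lay above every WT library in all 9 panels.

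IFNg and LPS raised all 9 rows in both genotypes. Over all genes tested, 22.3% were called higher with IFNg in KO cells and 22.5% in WT cells, and 24.5% were called higher with LPS in KO cells and 25.5% in WT cells. The median rise of the 9 rows with IFNg was 7.74 in KO and 7.92 in WT cells on the log2 scale, where the median of all genes was -0.08 in KO and 0.00 in WT cells. With LPS the median rise of the rows was 7.93 in KO and 7.71 in WT cells, where the median of all genes was -0.21 in KO and -0.06 in WT cells.

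Gbp2, whose protein gathers on the Toxoplasma vacuole in mouse cells, had 393159.7, 409771 and 416624 normalised read counts in KO IFNg libraries and 388903, 421762 and 417383 in WT IFNg libraries. In control libraries it had 545, 564 and 651 in KO and 517, 562 and 359 in WT. Every IFNg library was thus far above every control library of its genotype, with a log2 difference of 9.44 ± 0.10 (SE) in KO and 9.76 ± 0.10 in WT cells (adjusted p = 2.3e-27 in KO and 9.3e-28 in WT).

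Gbp4 had the largest fitted response to IFNg in both genotypes. It had 65512, 69458 and 67874 normalised read counts in KO IFNg libraries, against 20.8, 30.3 and 38.6 in KO control libraries. In WT it had 60836, 65387 and 63826 with IFNg, against 38.8, 32.9 and 12.2 in control. The log2 difference was 11.14 ± 0.26 (SE) in KO and 11.24 ± 0.26 in WT cells, and no IFNg library came near a control library. The Gbp5 row, at 11.04 ± 0.12 in KO cells, was within the error of Gbp4 there.

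The Gbp5 row had the largest response to LPS. It had 163794, 176462 and 168177 normalised read counts in KO LPS libraries, against 37.4, 57.5 and 54.4 in KO control libraries. In WT it had 120539, 122129 and 136564 with LPS, against 65.2, 73.5 and 95.3 in control. These are log2 differences of 11.73 ± 0.12 (SE) in KO and 10.66 ± 0.12 in WT cells. Mouse Gbp5 is known to promote assembly of the NLRP3 inflammasome. Whether the reads of this row came from Gbp5 or from Gbp2b cannot be told apart here.

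Gbp8 stood apart from the others in its response to LPS. It had 118, 119 and 101 normalised read counts in KO LPS libraries and 32.6, 40.5 and 63.1 in WT LPS libraries, against 15.9, 35.5 and 27.2 in KO control and 24.8, 18.7 and 9.77 in WT control libraries. The LPS libraries were above the control libraries of their genotype, by 2.13 ± 0.28 (SE) in KO and 1.34 ± 0.28 in WT cells on the log2 scale, where the 7 rows other than Gbp8 and Gbp11 rose by at least 6.15 in KO and 5.13 in WT cells. With IFNg it had 1899, 1870.4 and 1717 in KO and 1480.1, 1458 and 1469 in WT libraries, a log2 rise of 6.14 ± 0.28 in KO and 6.38 ± 0.28 in WT cells. KO LPS replicate 1, the shallowest library, held 5 Gbp8 reads.

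The remaining rows rose by amounts between these. With IFNg the log2 rise was 7.29 in KO and 7.92 in WT for Gbp3, 11.04 in KO and 10.51 in WT for the Gbp5 row, 7.74 in KO and 7.80 in WT for Gbp7, 8.84 in KO and 9.37 in WT for the Gbp6 row, and 6.44 in KO and 6.42 in WT for Gbp9. With LPS it was 8.03 in KO and 7.77 in WT for Gbp2, 7.93 in KO and 8.13 in WT for Gbp3, 7.91 in KO and 7.71 in WT for Gbp7, 8.80 in KO and 6.88 in WT for Gbp4, 8.01 in KO and 7.90 in WT for the Gbp6 row, and 6.15 in KO and 5.13 in WT for Gbp9. In none of these did a treated library overlap a control library of its genotype.

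The rise of Gbp11 rests on very few control reads. It had 2 reads over the 3 KO control libraries and 4 over the 3 WT control libraries, against 284 in KO IFNg and 645 in WT IFNg, and 172 in KO LPS and 92 in WT LPS. The ratio of IFNg to control was 182 (95% counting interval 50.1 to 1514) in KO and 108 (42.1 to 398) in WT cells. The ratio of LPS to control was 130.0 (35.4 to 1082) in KO and 32.9 (12.4 to 123) in WT cells. These intervals cover counting error only.

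IFNg and LPS differed in which members they raised most. Of the 9 rows, 5 were called higher with IFNg than with LPS in KO cells (23.1% of all genes) and 6 in WT cells (19% of all genes). The differences were largest for Gbp8, at 4.01 ± 0.28 (SE) in KO and 5.04 ± 0.28 in WT cells, and for Gbp4, at 2.33 ± 0.26 in KO and 4.36 ± 0.26 in WT cells. Gbp2 differed by 1.40 ± 0.10 in KO and 1.99 ± 0.10 in WT cells, and the Gbp6 row by 0.83 ± 0.17 in KO and 1.47 ± 0.17 in WT cells.

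Gbp3 and the Gbp5 row went the other way. In KO cells 2 rows were called lower with IFNg than with LPS (19.8% of all genes), Gbp3 by -0.64 ± 0.08 (SE) and the Gbp5 row by -0.69 ± 0.12, and in both the IFNg libraries lay below the LPS libraries. In WT cells 1 row was called lower (19.2% of all genes), Gbp3 by -0.21 ± 0.08 (adjusted p = 0.04), and the Gbp5 row was not called (-0.15 ± 0.12, adjusted p = 0.37). The WT call of Gbp3 was lost without replicate 1 (-0.18) or 3 (-0.21) of WT IFNg and without any of the WT LPS libraries (replicate 1 -0.23, replicate 2 -0.23, replicate 3 -0.18), with adjusted p from 0.052 to 0.14, and also with no filter (adjusted p = 0.058) and library weights (-0.19, adjusted p = 0.053). Gbp7 was called in neither genotype, at -0.17 ± 0.17 in KO and 0.09 ± 0.17 in WT cells.

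Gbp9 and Gbp11 differed less clearly in KO than in WT cells. Gbp9 was higher with IFNg than with LPS by 0.29 ± 0.11 (SE) in KO (adjusted p = 0.037) and by 1.30 ± 0.11 in WT cells. The KO call was lost without KO IFNg replicate 2 (0.27), KO IFNg replicate 3 (0.29) or KO LPS replicate 1 (0.21), with adjusted p from 0.086 to 0.15. It was also lost with no filter (0.29, adjusted p = 0.057), with library weights (0.23, adjusted p = 0.089) and with median centring (0.20, adjusted p = 0.22). Gbp11 differed by 0.90 ± 0.46 in KO cells, which was not called (adjusted p = 0.12), and by 1.82 ± 0.46 in WT cells.

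**Figure D3:**
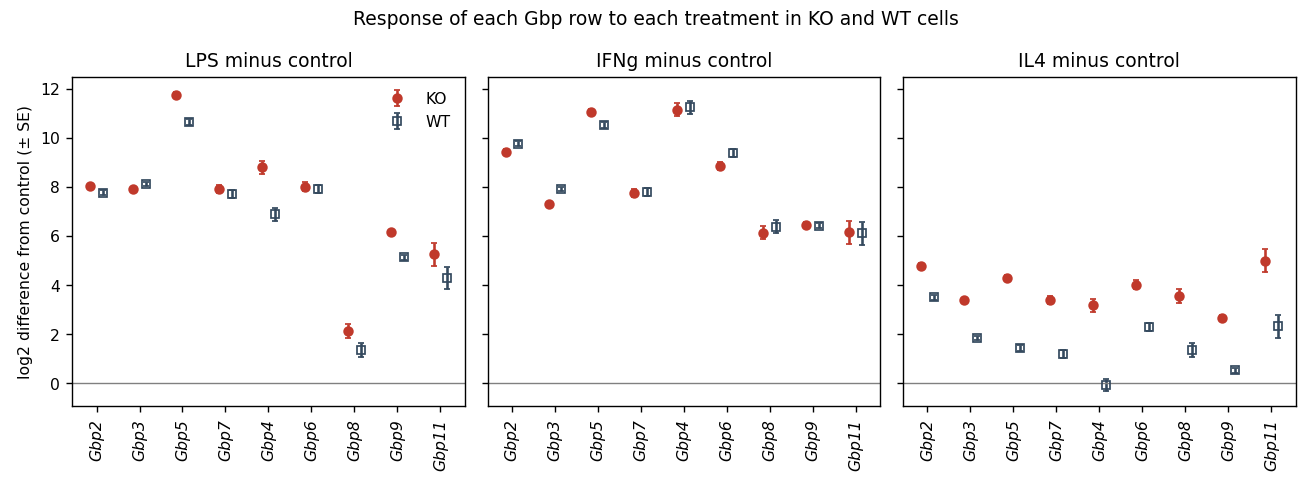
Log2 difference of each treatment from control for each GBP row, with its standard error, in KO (filled circles) and WT cells (open squares), from the fit to all 24 libraries. With IFNg the KO and WT points lie farthest apart for Gbp3 (7.29 in KO and 7.92 in WT). With LPS KO lies above WT by 0.79 or more for Gbp4, Gbp5, Gbp8, Gbp9 and Gbp11, and with IL4 KO lies above WT for every row.

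IL4, the cytokine of alternative activation, raised the family more in KO than in WT cells. All 9 rows were called higher with IL4 than in control in KO cells (12.6% of all genes) and 8 of 9 in WT cells (10.6% of all genes). The median log2 rise was 3.54 in KO cells, over a range of 2.66 (Gbp9) to 4.99 (Gbp11), and 1.43 in WT cells, over a range of -0.07 to 3.51. The values of Gbp11 rest on 2 control reads in KO, where its ratio of IL4 to control was 79.2 (95% counting interval 21.6 to 659), and on 4 in WT, where it was 6.93 (2.46 to 26.9). With a pseudocount of 10 its rise was 2.28 in KO and 0.71 in WT cells, and the WT call was lost (adjusted p = 0.051). The row not called in WT cells was Gbp4, with 25.9, 24 and 21.7 normalised read counts in WT IL4 libraries, against 38.8, 32.9 and 12.2 in WT control libraries (-0.07 ± 0.26 SE, adjusted p = 0.93). Without WT control replicate 3, the lowest of those 3 control libraries, Gbp4 was called lower with IL4 (-0.57, adjusted p = 0.023).

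Even in KO cells, the mean of each row with IL4 was below its mean with IFNg. Gbp2 with IL4 stood at 3.98% of its IFNg mean in KO cells and 1.31% in WT cells. Gbp4 stood at 0.404% in KO and 0.0377% in WT cells, and Gbp3 at 6.59% in KO and 1.46% in WT cells. Gbp8 stood at 16.7% in KO and 3.02% in WT cells, and its KO IL4 libraries (244 to 390.1) lay above its KO LPS libraries (101 to 119), whereas the WT IL4 (42.4 to 47.3) and WT LPS (32.6 to 63.1) libraries overlapped. The differences between IL4 and IFNg and between IL4 and LPS were not tested. Gbp11 with IL4 was at 44.3% of its IFNg mean in KO and 6.87% in WT cells.

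Loss of CITED2 went with higher GBP levels in IL4-treated cells for every row measured. All 9 rows were called higher in KO IL4 than in WT IL4 cells, where 6.14% of all genes were called higher. The log2 differences ran from 1.59 to 3.44, with a median of 2.26, where the median of all genes was 0.00. No KO IL4 library overlapped a WT IL4 library in any row. The share of all genes that separate in this way is not given here. As a ratio of means, the KO level was 3.01 times the WT level for Gbp2 and 11.4 times for Gbp4.

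Gbp2 had 17429, 15179.9 and 15901 normalised read counts in KO IL4 libraries, against 5363, 5367 and 5400.4 in WT IL4 libraries. The difference was 1.59 ± 0.10 (SE, adjusted p = 2.9e-11). This was the smallest of the 9 differences, in the most abundant member.

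The Gbp5 row had 1096, 839 and 978 in KO IL4 libraries, against 216, 208 and 205 in WT IL4 libraries, a difference of 2.20 ± 0.12 (SE, adjusted p = 2.3e-12). Gbp3 had 3380.2, 2892 and 3032 in KO IL4 libraries, against 678, 617 and 659.5 in WT IL4 libraries, a difference of 2.25 ± 0.08 (SE, adjusted p = 6.9e-16). Gbp7, which in mouse macrophages is known to act in assembly of the NADPH oxidase on phagosomes, had 1836, 1327 and 1477 in KO IL4 libraries, against 297, 330.1 and 328 in WT IL4 libraries, a difference of 2.26 ± 0.17 (SE, adjusted p = 3e-10). These 3 neighbours of Gbp2 on chromosome 3 thus differed by nearly the same amount between genotypes, in KO libraries that were all above all WT libraries.

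On chromosome 5, Gbp4 had 337, 226 and 256 normalised read counts in KO IL4 libraries, against 25.9, 24 and 21.7 in WT IL4 libraries. Its difference of 3.44 ± 0.26 (SE, adjusted p = 4.2e-10) was the largest of the 9. The Gbp6 row had 879, 792 and 786 in KO IL4 libraries, against 139.5, 149.9 and 141 in WT IL4 libraries (2.50 ± 0.17, adjusted p = 6.6e-11). Gbp9, whose protein like those of Gbp2, Gbp3, Gbp6 and Gbp7 has been seen on the Toxoplasma vacuole in mouse cells, had 1586, 1335 and 1352 in KO IL4 libraries, against 353, 355 and 305 in WT IL4 libraries (2.07 ± 0.11, adjusted p = 1.1e-12).

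Gbp8 and Gbp11 followed the same direction. Gbp8 had 390.1, 284 and 244 in KO IL4 libraries, against 47.3, 43.5 and 42.4 in WT IL4 libraries (2.73 ± 0.28 SE, adjusted p = 8.4e-08). Gbp11 had 44.3, 46.8 and 31.9 in KO IL4 libraries (177 reads in all), against 5.19, 6.29 and 12.2 in WT IL4 libraries (33 reads in all), a difference of 2.30 ± 0.46 (adjusted p = 0.0011), or 1.52 with a pseudocount of 10. For both, the lowest KO library was above the highest WT library.

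**Figure D4:**
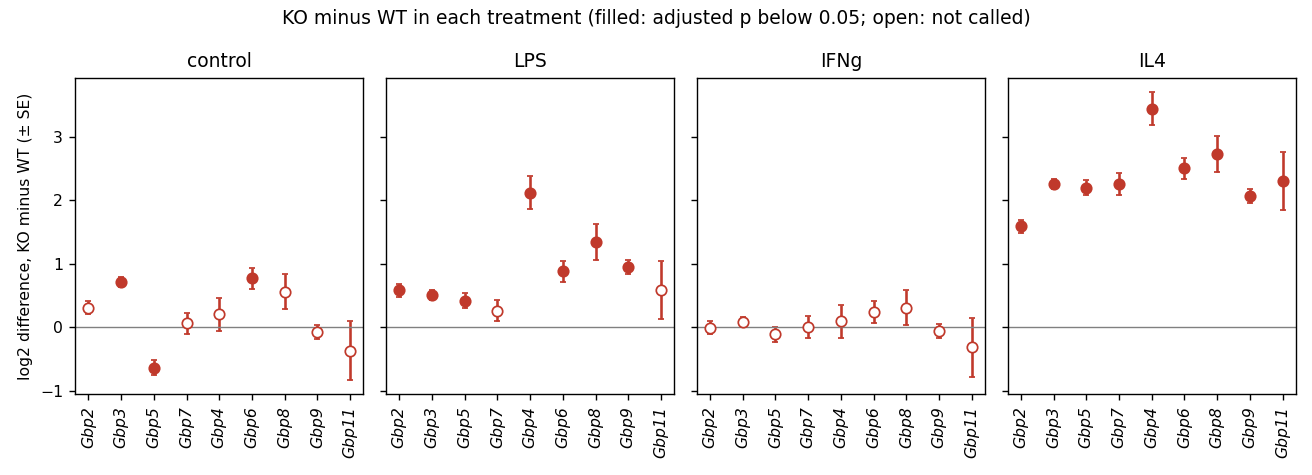
Log2 difference between KO and WT cells for each GBP row in each treatment, with its standard error; filled points were called at an adjusted p below 0.05 and open points were not. With IL4 all 9 points are filled and lie between 1.59 and 3.44, with LPS 7 are filled, in control 3 are filled (1 of them below 0), and with IFNg none is filled.

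The difference between genotypes with IL4 exceeded that in control cells for all 9 rows (interaction of genotype with IL4, called higher for 2.45% of all genes). The interaction was 3.24 ± 0.36 (SE) for Gbp4, 2.84 ± 0.17 for the Gbp5 row, 2.67 ± 0.65 for Gbp11, 2.20 ± 0.23 for Gbp7, 2.17 ± 0.39 for Gbp8, 2.14 ± 0.16 for Gbp9, 1.73 ± 0.24 for the Gbp6 row, 1.54 ± 0.11 for Gbp3 and 1.27 ± 0.14 for Gbp2. The adjusted p ran from 4.1e-11 for the Gbp5 row to 0.017 for Gbp11. The Gbp11 call rests on 2 and 4 control reads and was lost without KO control replicate 2 (2.47), KO IL4 replicate 1 (2.60), WT control replicate 1 (2.51), WT control replicate 2 (2.44) or WT IL4 replicate 1 (2.44), with adjusted p from 0.051 to 0.062. The other 8 kept their call under each alternative run.

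Some marker genes of macrophages and of other cells also moved with genotype in IL4-treated cells. Of the 8 macrophage markers, 2 were called higher in KO IL4 and 1 lower. Those higher were Mertk (1878 in KO IL4 and 1661 in WT IL4) and Fcgr1 (2376 and 1234). The 1 lower was Lyz2 (941 in KO IL4 and 1226 in WT IL4). Summed levels of 8 T and NK cell markers were 21.5 to 24.8 in KO IL4 and 6.92 to 9.42 in WT IL4 libraries, with 0 of 8 called between the genotypes and Ncr1 without a read in WT IL4. Ifng itself, the gene of interferon gamma and 1 of those markers, had 2 reads in KO IL4 and 3 in WT IL4 cells. Neutrophil markers summed to 269 to 323 in KO IL4 and 497 to 621 in WT IL4 libraries, with 5 of the 7 tested called lower in KO and Ly6g without a read in either group. Endothelial markers summed to 2869.5 to 3289.6 in KO and 3087 to 3099 in WT, with 1 of the 5 tested called, Kdr (794 in KO IL4 and 347 in WT IL4). Most of that sum was Vwf (2266 in KO IL4 and 2693 in WT IL4). Tek had 1 read in KO IL4 and 0 in WT IL4, Erg 3 and 1, Cdh5 30 and 21, and Pecam1 165 and 226. B cell markers summed to 18.2 to 23.6 in KO and 21.3 to 25.2 in WT, with 1 of the 5 tested called, Cd79a (15 reads in KO IL4 and 0 in WT IL4). Fibroblast markers summed to 368 to 506 in KO and 521 to 526 in WT, with 1 of 6 called, Col1a1 (48.4 in KO IL4 and 105 in WT IL4). Dendritic cell markers summed to 23.4 to 29.3 in KO and 29.2 to 39.8 in WT, with 0 of the 4 tested called. The part of other cells in the GBP difference was not tested.

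With LPS, 7 of the 9 rows were higher in KO than in WT cells, where 9.7% of all genes were called higher. The median log2 difference of the rows was 0.59, where that of all genes was -0.06. Gbp4 had 13207, 13178 and 13845 normalised read counts in KO LPS libraries, against 2825, 2820.0 and 3689 in WT LPS libraries, a difference of 2.12 ± 0.26 (SE, adjusted p = 1.2e-06). Every KO LPS library was more than 3 times the highest WT LPS library for this gene.

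Gbp8 had 118, 119 and 101 in KO LPS libraries, against 32.6, 40.5 and 63.1 in WT LPS libraries (1.34 ± 0.28 SE, adjusted p = 0.00085). Gbp9 had 14269.7, 16725 and 16871 in KO LPS libraries, against 7688, 7731 and 9437 in WT LPS libraries (0.95 ± 0.11, adjusted p = 7.9e-07). The Gbp6 row had 12238, 13396 and 13369.9 in KO LPS libraries, against 6759, 6772 and 7670.0 in WT LPS libraries (0.88 ± 0.17, adjusted p = 0.0004). In these 3 rows the KO libraries were all above the WT libraries.

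Gbp2 had 152288, 158266 and 150021 in KO LPS libraries, against 102037, 99162 and 107277 in WT LPS libraries (0.58 ± 0.10 SE, adjusted p = 0.00016). Gbp3 had 69907, 77229 and 73292 in KO LPS libraries, against 50499, 50124 and 54109 in WT LPS libraries (0.51 ± 0.08, adjusted p = 4e-05). The Gbp5 row, at the LPS values given above, differed by 0.42 ± 0.12 (adjusted p = 0.014), and this call was lost without WT LPS replicate 1 (0.39, adjusted p = 0.061) or WT LPS replicate 2 (0.40, adjusted p = 0.052). The libraries of the genotypes did not overlap for any of these chromosome 3 rows. Each of their differences was smaller than each of the 4 called on chromosome 5. Gbp11, also on chromosome 5, was not called and differed by 0.59 ± 0.46, about as much as Gbp2. Differences between rows or clusters were not tested.

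Gbp7 and Gbp11 were not called with LPS. Gbp7 had 33123, 37162 and 35149 in KO LPS libraries, against 28629, 27229 and 32157 in WT LPS libraries (0.26 ± 0.17 SE, adjusted p = 0.28). Gbp11 had 23.6, 72.6 and 66.3 in KO LPS libraries, against 24.5, 33.5 and 39.3 in WT LPS libraries (0.59 ± 0.46, adjusted p = 0.4), and the lowest of these rests on 1 read. The Gbp7 groups did not overlap and the Gbp11 groups did. Without KO LPS replicate 1 the count of rows called stayed at 7.

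The difference with LPS exceeded that in control cells for 3 rows (interaction called higher for 4.29% of all genes). It was 1.92 ± 0.36 (SE) for Gbp4 (adjusted p = 0.00085), 1.07 ± 0.17 for the Gbp5 row (adjusted p = 0.00016) and 1.02 ± 0.16 for Gbp9 (adjusted p = 8.9e-05). For the Gbp5 row, the KO level was below WT in control and above it with LPS. Without WT control replicate 3 this count of rows was 6, with Gbp2 (0.46), the Gbp6 row (0.47) and Gbp8 (1.14) added. Without WT control replicate 2 it was 4, with Gbp3 (-0.32) added in the opposite direction.

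In LPS-treated cells Ifnb1, the gene of interferon beta, was also higher, at 219 ± 16.8 normalised read counts in KO LPS and 31.4 ± 11.9 in WT LPS cells (2.83 ± 0.43 SE, adjusted p = 2.5e-05). Ifng had 49 reads in KO LPS and 7 in WT LPS cells. T and NK cell markers summed to 23.6 to 41.3 in KO LPS and 4.08 to 13.9 in WT LPS libraries, with 1 of 8 (Cd3e) called higher and Cd3g without a read in WT LPS. B cell markers summed to 23.6 to 31.3 in KO LPS and 9.52 to 12.2 in WT LPS libraries, with Cd79a called higher. In KO LPS replicate 1 a single read was worth 23.6, the value of the lowest sum of both lists. It was also the highest KO LPS value of Cd3e, Cd79b and Clec9a. Cd3e had 10 reads in KO LPS and 2 in WT LPS, Cd79a 15 and 0, and Clec9a 22 and 12. Endothelial markers summed to 5528 to 6201 in KO LPS and 3893 to 4203 in WT LPS libraries, with Kdr called higher and Cdh5 lower. Nearly all of that sum was Kdr (4794 in KO LPS and 2954 in WT LPS) and Vwf (1082 and 1058). Cdh5 was at 20.5 in KO LPS and 52.6 in WT LPS. Tek had 2 reads in KO LPS and 1 in WT LPS, and Erg 5 and 4. Of the other lists, Clec9a (dendritic cells) and Ltf (neutrophils) were called higher, Ngp (neutrophils) and Pdgfrb (fibroblasts) lower, and of the macrophage markers 1 of 8 was called higher (Mertk, 5408 in KO LPS and 1177 in WT LPS) and 4 lower. Their part in the GBP difference was not tested. With IL4, Ifnb1 had 2 reads in KO and 1 read in WT cells.

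Without treatment, the genotypes differed in 3 rows. Gbp3 had 285, 297 and 317 normalised read counts in KO control libraries, against 159.6, 217 and 176 in WT control libraries (0.71 ± 0.08 SE, adjusted p = 8.6e-07). The Gbp6 row had 53.9, 48.1 and 46.5 in KO control libraries, against 32.9, 41.3 and 17.1 in WT control libraries (0.77 ± 0.17, adjusted p = 0.0037), and the difference fell to 0.41 without WT control replicate 3, still called (adjusted p = 0.0038). The call was lost in a fit to only the groups compared (adjusted p = 0.32). Over all genes 4.11% were called higher, so 2 of 9 rows in that direction stands beside 766 of 18637 genes.

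The Gbp5 row was the 1 row called lower in KO control cells (3.05% of all genes). It had 37.4, 57.5 and 54.4 in KO control libraries, against 65.2, 73.5 and 95.3 in WT control libraries (-0.64 ± 0.12 SE, adjusted p = 0.00091), and the groups did not overlap. This call too was lost in a fit to only the groups compared (adjusted p = 0.21). Gbp2, with 545, 564 and 651 in KO and 517, 562 and 359 in WT control libraries, was not called (0.31 ± 0.10, adjusted p = 0.069). It was called without WT control replicate 1 (0.38, adjusted p = 0.049) or WT control replicate 2 (0.44, adjusted p = 0.0063). The rest were not called, with differences of 0.56 ± 0.28 for Gbp8, 0.20 ± 0.26 for Gbp4, 0.06 ± 0.17 for Gbp7, -0.07 ± 0.11 for Gbp9 and -0.37 ± 0.46 for Gbp11.

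With IFNg, none of the 9 rows was called between the genotypes, where 9.05% of all genes were called in either direction. In this limma fit 0 rows also had an unadjusted p below 0.05. With edgeR 2 rows were called higher (the Gbp6 row and Gbp8), where 1315 of 18637 genes were called higher and 1218 lower. With DESeq2 1 row was called higher (the Gbp6 row), where 1303 of 14662 genes were called higher and 1273 lower. The limma differences ran from -0.32 ± 0.46 (SE) for Gbp11 to 0.31 ± 0.28 for Gbp8, with a median of -0.00. Gbp2 differed by -0.01 ± 0.10 and Gbp3 by 0.08 ± 0.08. The KO and WT libraries overlapped for 5 rows. They lay apart for Gbp4, Gbp6 and Gbp8 (KO above WT) and for Gbp5 (KO below WT). The share of all genes whose libraries lay apart in this way is not given here. This separation is therefore not read as a genotype difference.

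Set against the control cells, 1 row had a called interaction of genotype with IFNg (called lower for 1.18% of all genes). It was Gbp3, at -0.63 ± 0.11 (SE, adjusted p = 0.0012). Its KO mean was 47029 ± 2324 normalised read counts with IFNg and 299 ± 16 in control, and its WT mean was 44527 ± 1770.4 with IFNg and 184 ± 29.4 in control. The KO-WT difference in Gbp3 was thus present without treatment and not called with IFNg. The Gbp5 row (0.65, adjusted p = 0.048) was added without WT control replicate 1, and the Gbp6 row (-0.78, adjusted p = 0.034) without WT control replicate 2.

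Averaged over the 4 treatments, 8 of 9 rows were higher in KO cells (11.6% of all genes). The average difference ran from 0.47 ± 0.06 (SE) for the Gbp5 row to 1.46 ± 0.13 for Gbp4. Gbp11 was not called (0.55 ± 0.23, adjusted p = 0.093) but was without KO LPS replicate 1 (0.68, adjusted p = 0.0081). The average pools treatments in which the differences were unlike, since the interaction of genotype with IL4 was called for all 9 rows. With IFNg none of the 9 rows was called between the genotypes. Of the 8 macrophage markers, 1 was called higher and 5 lower in the averaged comparison. In the same comparison 4 of 8 T and NK cell markers (Cd3d, Cd3e, Cd3g and Nkg7), Cd79a and Kdr were called higher. Lower were 5 of the 7 tested neutrophil markers and 2 of 6 fibroblast markers. Their part in the GBP difference was not tested.

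Genes that act before, beside and after the GBPs were counted from lists made with earlier results of these data known. The members of the interferon receptor, JAK-STAT and IRF list were 12 of 22 higher and 2 of 22 lower in KO IL4 than in WT IL4 cells, where 6.14% of all genes were called higher and 3.14% lower, with a median log2 difference of 0.24. Irf1, which acts at GBP promoters, was at 6573 ± 94.1 in KO IL4 and 3906 ± 53.8 in WT IL4 cells (0.75 ± 0.06 SE, adjusted p = 4.9e-10), and Irf7 was at 3497 ± 305 in KO IL4 and 596 ± 25.5 in WT IL4 cells (2.55 ± 0.11). The 2 genes called lower were the receptor genes Ifngr1 (-0.61 ± 0.06) and Ifnar1 (-0.18 ± 0.05). Irf8 was not called with IL4 (0.13 ± 0.05, adjusted p = 0.16) and was higher with LPS, at 32478 ± 1830.4 in KO LPS and 7521 ± 209.7 in WT LPS cells (2.11 ± 0.05).

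The immunity-related GTPases (IRGs), smaller interferon-inducible GTPases that act with GBPs at pathogen vacuoles in mice, were 11 of 11 higher in KO IL4 than in WT IL4 cells (6.14% of all genes), with a median of 1.60. Irgm1 was at 6188 ± 478 in KO IL4 and 2386 ± 21.4 in WT IL4 cells (1.37 ± 0.08 SE), and Tgtp2 at 295 ± 44.3 in KO IL4 and 46.2 ± 5.46 in WT IL4 cells (2.64 ± 0.17). With LPS 8 of 11 IRGs were higher in KO cells (9.7% of all genes) and with IFNg 1 of 11 (4.83%). In control cells none was higher (4.11% of all genes) and 1 was lower (3.05%).

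Of the caspase-11 and inflammasome list, 4 of 12 genes were higher (6.14% of all genes) and 2 lower (3.14%) in KO IL4 cells, with a median of 0.24. Casp4, the mouse gene of caspase-11, was at 1136 ± 76 in KO IL4 and 539 ± 36.8 in WT IL4 cells (1.08 ± 0.08 SE), and Aim2 and Gsdmd were also higher, by 0.45 and 0.41. Nlrp3 was lower, at 370.1 ± 38.1 in KO IL4 and 455 ± 8.31 in WT IL4 cells (-0.30 ± 0.06), as was Mefv (-0.69 ± 0.18). In the autophagy list, whose ATG conjugation machinery guides GBPs to vacuoles in mouse cells, 7 of 14 genes were higher (6.14% of all genes), led by the interferon-inducible Rnf213 (1.06 ± 0.08) and Ube2l6 (0.87 ± 0.06).

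Genes for the isoprenylation that anchors some GBPs were 1 of 10 higher (6.14% of all genes) and none lower, a share near that of all genes, with a median of -0.04. Fnta, a subunit of the protein prenyltransferases, was at 1113 ± 31.7 in KO IL4 and 1175 ± 61.1 in WT IL4 cells and was not called (-0.08 ± 0.08). Among other large GTPases 2 of 7 measured were higher (6.14% of all genes), the interferon-inducible Mx1 (2.72 ± 0.10) and Mx2 (1.82 ± 0.16), while the 5 atlastin and dynamin genes were not called (0.01 to 0.15).

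**Figure D5:**
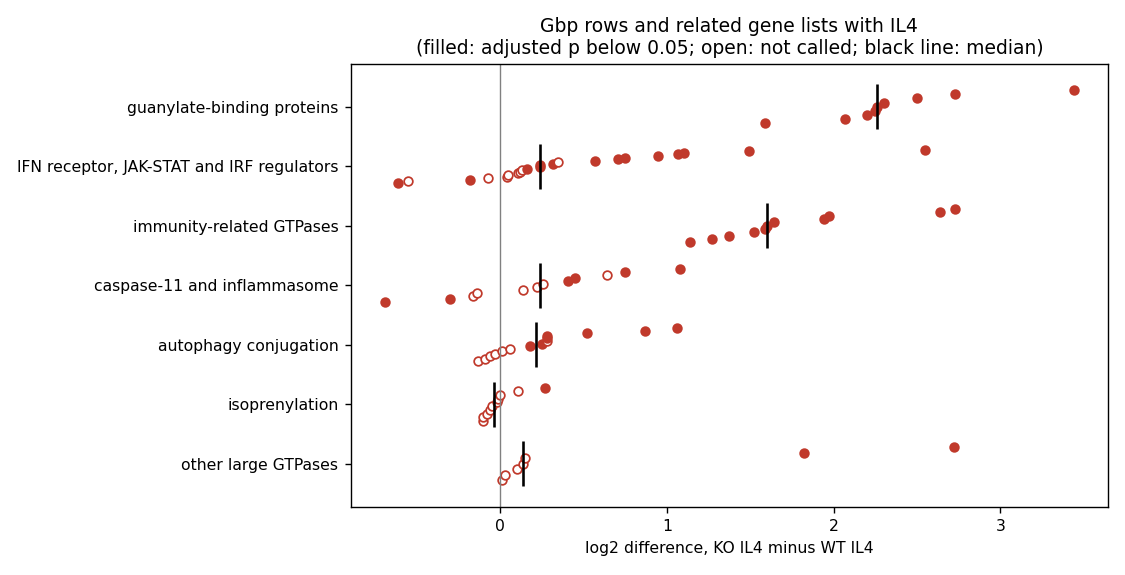
Log2 difference between KO IL4 and WT IL4 cells for the 9 GBP rows and for each gene of 6 related lists; filled points were called, open points were not, and the black line is the median of a list. The GBP rows (median 2.26) and the IRGs (median 1.60) lie wholly to the right of 0, and the isoprenylation genes lie around it (median -0.04).

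Members were alike in their course over the 24 libraries, as a description of points that share the 8 groups. Gbp3 and Gbp7 were closest, with a Pearson r of 0.996 on log2 values, and the Gbp5 row was closest to Gbp7 (r = 0.995). Gbp6 and Gbp9 had r = 0.992, Gbp2 and Gbp6 0.990, and Gbp4 and Gbp9 0.982. Gbp8 was the odd one, with no r above 0.829 (Gbp11) and the lowest r with the Gbp5 row (0.639). Among other genes with a mean of at least 10, those most like the mean course of the members were Papss2 (r = 0.990), Irf1 (0.989), Tgtp2 (0.989), Pla2g16 (0.989), Nampt (0.987), Agtrap (0.987), Mab21l3 (0.986) and Il18bp (0.986). Predicted genes (Gm and Rik symbols) were left out of this ranking. The log2 difference between KO IL4 and WT IL4 cells was 2.64 for Tgtp2, 1.00 for Pla2g16, 0.80 for Il18bp and 0.75 for Irf1. It was 0.53 for Nampt, 0.44 for Papss2 and 0.39 for Agtrap, and 1.01 for Mab21l3, which was not called (adjusted p = 0.14). The median of the GBP rows was 2.26, so a high r here did not mean a like genotype difference.

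Genes beside the clusters did not share the size of the difference. The 5 nearest protein-coding genes with a row, outside the family, were taken on each side of each cluster. Of these, 20 in all, 17 were tested, and they lay 31432 (Abcg3) to 1791698 (Hs2st1) bases from their cluster. In KO IL4 against WT IL4 cells 3 were called higher (6.14% of all genes) and 1 lower (3.14%), and no difference exceeded 0.72 in size, where the smallest of the GBP rows was 1.59. The nearest of those tested, Abcg3, 31432 bases from the chromosome 5 cluster, differed by 0.25 ± 0.44 (SE, adjusted p = 0.88).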

How the data were processed

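RNA was measured in 24 libraries of cultured macrophages. The deposited table held a signal: gene-level read counts that had been scaled with 1 factor per library, as read from the values, since every value (100.0%) was a whole multiple of a step of its library within a tolerance of 0.05 reads. The submitters' processing notes name TopHat2 2.2.1, Cufflinks 2.2.1, Cuffdiff and build mm10 (GRCm38). How they were combined was not given in the sources used here. Of 42462 identifiers found in GENCODE M21, 3370 (7.94%) carry another symbol there.

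Values were analysed as log2(value + 1), keeping the 18637 genes that reached a value of 1 in 3 or more libraries, with limma 3.58.1 in R 4.3.3 (1 mean per group, mean-variance trend, 16 residual degrees of freedom, Benjamini-Hochberg over all genes tested). The pseudocount of 1 understates changes of low genes. The 16 comparisons were KO against WT per treatment and averaged, each treatment against control and IFNg against LPS per genotype, and interactions of genotype with treatment. edgeR 4.0.16 and DESeq2 1.42.0 on the recovered reads were alternatives, and the procedure was tested on simulated data. Sequences are RefSeq's (GRCm38.p6).

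The members, lists and tests were chosen with earlier results of these data known. All members with a row were described in every comparison. From each list up to 4 genes with the smallest p of the average genotype difference qualified, plus Irf1, Irf8, Casp4, Ifngr1 and 1 gene not reported here; other named genes, Ifnb1 among them, were chosen after their values were seen. The genes most like the family were the 8 with the highest r with the members' mean. Only genes with a mean of at least 10 were ranked, and predicted genes (Gm and Rik symbols) were left out. Replicate numbers came from the titles and were not used to pair the libraries in the main fit. Over 84 pairs of same-numbered libraries the correlation of deviations from group means was -0.06 to 0.08. It was taken over all genes tested, low ones included, and cannot show that the libraries were unpaired.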

Additional observations from a re-analysis of the deposited data

Results flagged for a closer look

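The interaction of genotype with treatment was called for 13 of 27 tests of the members, where over all genes it was called in either direction for 8.79% with LPS, 2.5% with IFNg and 3.61% with IL4, so that the genotype difference under a treatment was not the one in control cells. With IL4 it was 1.27 for Gbp2, 1.54 for Gbp3, 3.24 for Gbp4, 2.84 for the Gbp5 row, 1.73 for the Gbp6 row, 2.20 for Gbp7, 2.17 for Gbp8, 2.14 for Gbp9 and 2.67 for Gbp11, all in the direction of a larger rise in KO than in WT cells. With LPS it was 1.92 for Gbp4, 1.07 for the Gbp5 row and 1.02 for Gbp9, again with the larger rise in KO cells. With IFNg it was -0.63 for Gbp3, with the smaller rise in KO cells. The 3 sets of tests share the control libraries. Groups of 3 libraries were too small for a search for single outlying libraries.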

How the results depend on the processing

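No called difference of a member reversed its direction under the alternatives run (a pseudocount of 10, no filter, a filter at 10, edgeR, DESeq2, median centring, only the groups compared, library weights, a replicate block, and each library left out). Of 1287 values of members, 1259 kept their side of the threshold, 12 lost and 16 gained a call, and of 1188 with a library left out 1163 kept it, 15 lost and 10 gained it. Differences that were not called changed sign in 24 and 31 of these. The replicate block changed no call of a member. The count of rows called for KO against WT with IFNg was 2 with edgeR, 1 with DESeq2 and 1 with only the groups compared, against 0. Over all genes edgeR called 1315 of 18637 higher and 1218 lower, and DESeq2 1303 of 14662 higher and 1273 lower. The fit to only the groups compared called 943 of 18637 higher and 1107 lower, against 901 and 785 in the main fit. For the interaction with LPS the count of rows was 5 with DESeq2 and 5 with library weights, against 3, and ran from 3 to 6 with a library left out. Over all genes DESeq2 called 1028 of 11772 higher and 921 lower. Library weights called 1494 of 18637 higher and 1261 lower, against 800 and 839 in the main fit. For the interaction with IFNg the count of rows was 2 with library weights, against 1, and ran from 1 to 2 with a library left out. Over all genes library weights called 757 of 18637 higher and 763 lower, against 246 and 220 in the main fit. Counts over all genes with a library left out are not given here. For KO against WT in control cells the count of rows was 1 with only the groups compared, against 3. That fit called 705 of 18637 genes higher and 595 lower, against 766 and 568 in the main fit. That setting leaves fewer libraries to estimate the spread; the cause of the others was not tested. It also ended the calls of the Gbp5 row (adjusted p = 0.073) and Gbp8 (0.076) for KO against WT with LPS. Gbp11 lost its interaction with IL4 with edgeR (adjusted p = 0.13) and DESeq2 (0.069). With KO against WT and LPS, Gbp11 was called by edgeR (1.00) and DESeq2 (0.98). All 9 rows stayed called for KO against WT with IL4 under every alternative run. Median centring raised the median of all genes by 0.42 for LPS against control in both genotypes and by 0.33 in KO and 0.32 in WT cells for IFNg against control, and the share of all calls that were higher for KO against WT was then 71.4% in control, 58.2% with LPS and 72% with IFNg, against 57.4%, 43.7% and 53.4%; no call of a member for these treatments against control changed, while Gbp2 gained a call for KO against WT in control (0.38, adjusted p = 0.035) and Gbp9 lost that for IFNg against LPS in KO cells (0.20, adjusted p = 0.22). Depth limits Gbp11 and Gbp8 most: in KO LPS replicate 1 a single read was worth 23.6 and a count of 3 reads 70.9.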
